A study of Mus musculus with 12 samples.

Results

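The 9 genes described here carry the main steps of iron handling in a cell: storage (Fth1 and Ftl1), import and export (Slc40a1, Tfrc, Slc11a1 and Slc11a2), sensing (Aco1 and Ireb2) and oxidation (Cp). They were taken as a list of symbols and matched by gene identifier to the GENCODE M21 annotation of the mouse genome build GRCm38. All 9 were among the 48526 genes of the count table, and all 9 were among the 15523 genes that passed the filter on low counts and were tested.

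Total RNA had been sequenced from bone marrow-derived macrophages (BMDMs), primary macrophages grown from mouse marrow in L929-conditioned medium. The cells labelled HSS9 KO came from mice homozygous for a deletion upstream of Tnf, at the enhancer that the study calls TNF-9, and the WT cells came from HSS9+/+ controls. Cells of each genotype received PBS (the untreated group, UT) or lipopolysaccharide (LPS), a bacterial product that activates macrophages, for 6 hr. The 12 libraries thus formed 4 groups of 3, named by genotype and treatment, and by the methods of the study all mice were young adult males. The labels call the controls littermates, whereas the methods state that KO mice were kept as homozygous breeding pairs and that C57BL/6 mice were bought, so the background of the genotypes may differ beyond the deletion. The labels do not say whether the libraries of a group came from separate animals or cultures, so p-values measure the spread between these libraries only.

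Ferritin, the cytosolic iron store, is a shell of heavy chains (Fth1), which oxidize iron, and light chains (Ftl1), which help to deposit it. Iron enters cells bound to transferrin through the transferrin receptor (Tfrc) and leaves the endosome through DMT1 (Slc11a2), while ferroportin (Slc40a1) exports it and ceruloplasmin (Cp) oxidizes it outside the cell. Both iron regulatory proteins, IRP1 (Aco1) and IRP2 (Ireb2), bind a stem-loop called the iron-responsive element when iron is scarce. Bound at the 5′ end of a messenger RNA (mRNA) they hold back its translation, and bound in the 3′ untranslated region (UTR) of Tfrc they protect it from decay. Macrophages are known to recycle the iron of aged red cells and to retain iron during inflammation.

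The elements are shown first because they are the kind of site that these proteins are known to bind. Annotated protein-coding transcripts of GENCODE M21 were searched on the transcript strand for a C, then 5 bases, then CAGTG and A, C or T, then 5 bases able to pair with the first 5, with G-U pairs allowed. Of 21901 protein-coding genes, 123 (0.562%) held such a match in a UTR, 23 of them (0.105%) in a 5′ UTR and 100 (0.457%) in a 3′ UTR. Of the 9 members, 4 held 1 or more. The capitals mark the 6-base loop, and coordinates are those of GRCm38.

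Fth1, 5′ UTR, chr19:9982732-9982761, plus strand: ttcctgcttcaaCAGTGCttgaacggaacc
Ftl1, 5′ UTR, chr7:45459778-45459807, minus strand: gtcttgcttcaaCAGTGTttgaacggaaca
Slc40a1, 5′ UTR, chr1:45925464-45925493, minus strand: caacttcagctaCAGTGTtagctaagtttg
Tfrc, 3′ UTR, chr16:32631219-32631248, plus strand: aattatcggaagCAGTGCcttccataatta
Tfrc, 3′ UTR, chr16:32631598-32631627, plus strand: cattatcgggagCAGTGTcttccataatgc
Tfrc, 3′ UTR, chr16:32631663-32631692, plus strand: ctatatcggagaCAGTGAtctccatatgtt
Tfrc, 3′ UTR, chr16:32631710-32631739, plus strand: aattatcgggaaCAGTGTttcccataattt

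The Fth1 and Ftl1 sites shared 26 of 30 bases, and either shared 13 of 30 with the Slc40a1 site. The 4 Tfrc sites, which lie within one 3′ UTR, shared 18 to 25 of 30 bases with each other. The Slc40a1 site was annotated in 1 of 4 protein-coding transcripts, the Ftl1 site in 1 of 2, the Fth1 site in 4 of 5 and the Tfrc sites in 1 of 3. Counts per gene cannot tell which of these transcripts were present. Slc11a2, for which transcripts with and without an element are known, had no match to these letters, from which nothing follows for the gene. The search can miss elements of other letters or pairing, so the printed sites need not be all that a gene holds.

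Library totals ranged from 26154533 to 36423921 counts, and values are given as CPM, counts scaled by TMM to a common library size. A gene passed with an edgeR adjusted p under 0.05, and was called when its absolute log2 fold change was also above 1. The deleted enhancer was checked through Tnf, which was lower in KO than in WT after LPS (log2 fold change -1.04, edgeR adjusted p 2.76e-10). Tnf was lower in KO before LPS too (log2 fold change -0.66, edgeR adjusted p 1.29e-06). All 8 macrophage markers were expressed. Of the 8 erythroid markers 0 passed the filter, and their summed level was at most 0.294 CPM, although the library kit removes globin mRNA and so the 4 globin genes among them say little. Of all replicate pairs, WT LPS replicates 1 and 3 differed most, with a chi-square of 42.2 per degree of freedom. It was 15.9 between WT LPS replicates 1 and 2 and 11.4 between replicates 2 and 3. In bulk RNA, fewer cells that express a gene and less RNA per cell cannot be told apart.

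Ranked per length, the ferritin chains stood far above the other members in every group. In WT UT cells, Ftl1 was at 3169 ± 184 FPKM (CPM per kilobase of exon, SD, n = 3) and Fth1 at 2115 ± 19.3 FPKM (SD, n = 3), the latter 26.4 times the level of the next gene. That was Slc11a1, the phagosomal metal transporter NRAMP1 of macrophages, at 80.3 ± 0.761 FPKM (SD, n = 3). Aco1, Tfrc, Slc11a2, Ireb2 and Slc40a1 followed between 13.3 and 6.39 FPKM, and Cp was last at 0.228 ± 0.0475 FPKM (SD, n = 3). None of these 8 steps overlapped in WT UT. After LPS, Cp moved from the ninth place to the fifth and Slc40a1 from the eighth to the ninth, in WT cells. Neighbors whose libraries overlapped were Slc11a2 and Tfrc, and Slc40a1 and Ireb2, in KO UT, and Aco1 and Tfrc in WT LPS and KO LPS. The order of Ftl1 and Fth1 rests on the exon lengths used, which were 1340 and 3469 bases, the latter over all annotated Fth1 transcripts. Together the ferritin chains took 1.46% to 1.53% of all counts in WT UT and 0.881% to 0.934% in WT LPS.

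**Figure D1:**
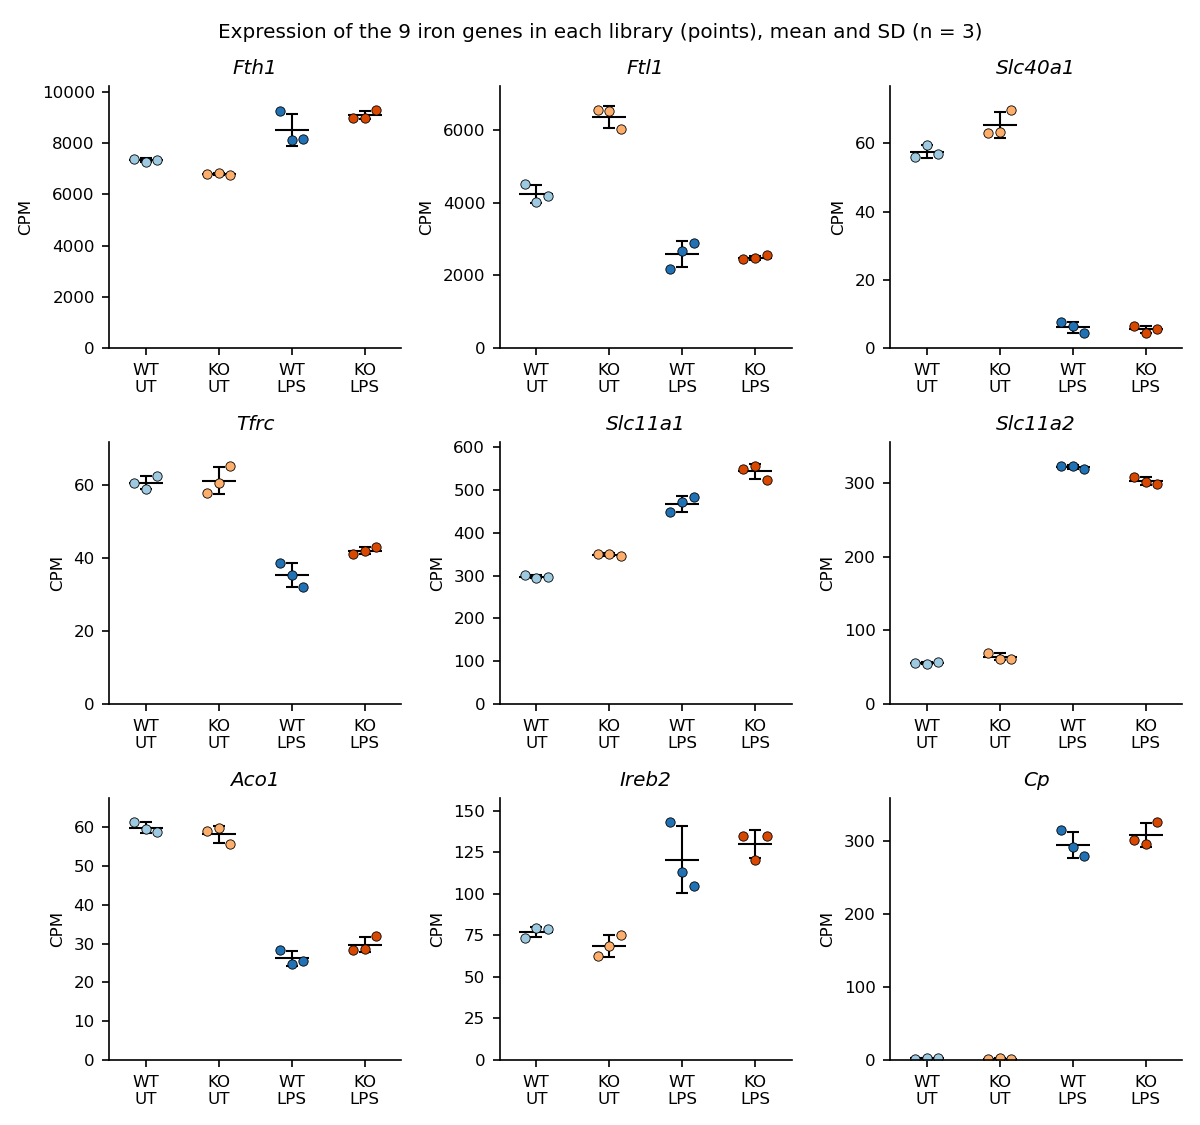
Expression of each of the 9 genes in CPM (y axis, from 0, each gene on its own scale) in the 12 libraries, by group (x axis); points are libraries, the wide mark is the mean and the bars are the SD (n = 3). Slc40a1 fell to between 4.38 and 7.56 CPM in all 6 LPS libraries, Cp rose from at most 2.47 CPM to at least 279.4 CPM, and Ftl1 was higher in KO UT than in WT UT.

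The first question was how LPS changed the iron genes. All 9 passed in WT cells, 5 of them higher and 4 lower after LPS, and 4 were called (Slc40a1, Slc11a2, Aco1 and Cp). This is to be read against the whole table, of which 73.3% passed in that comparison (38% higher, 35.3% lower) and 37.8% were called. In KO cells all 9 passed as well, in the same directions, and 4 were called (Ftl1, Slc40a1, Slc11a2 and Cp). There 72.8% of all genes passed (35.1% higher, 37.7% lower) and 37% were called. The median absolute log2 fold change of the members was 0.78 in WT and 0.97 in KO, beside 0.76 and 0.74 over all genes tested. Libraries of the same replicate number, 1 per group, are here called a batch. Within each of the 3 batches every member moved in the same direction as in the full fit, in both genotypes. This adds no separate support, because the LPS and UT libraries of a genotype overlapped for no member. Any pairing of them gives the same directions.

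The ferritin chains parted after LPS. Ftl1 (ENSMUSG00000050708.16, chromosome 7, 45457944 to 45459884, minus strand) was at 4511, 4024 and 4204 CPM in WT UT and at 2189, 2676 and 2887 CPM in WT LPS. In KO cells it was at 6567, 6528 and 6030 CPM without LPS and at 2445, 2472 and 2554 CPM with it. Every LPS library thus lay below every UT library. Ftl1 fell by 0.72 on the log2 scale in WT (SE 0.0711, edgeR adjusted p 8.5e-09) and by 1.36 in KO (SE 0.0720, edgeR adjusted p 1.96e-13).

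Fth1 (ENSMUSG00000024661.6, chromosome 19, 9980598 to 9985098, plus strand) was at 7396, 7263 and 7347 CPM in WT UT and at 9237, 8135 and 8177 CPM in WT LPS. It was at 6806, 6851 and 6763 CPM in KO UT and at 8994, 9001 and 9301 CPM in KO LPS. Within each genotype the LPS libraries lay above the UT libraries, and the change was small beside that of Ftl1. On TMM scaling Fth1 was higher after LPS by a log2 fold change of 0.22 in WT (SE 0.0454, edgeR adjusted p 0.000228) and 0.42 in KO (SE 0.0454, edgeR adjusted p 3.56e-08), but with no scaling factors these became -0.45 and -0.09, and with upper-quartile scaling the value in WT was 0.03 (edgeR adjusted p 0.477). With no scaling factors the median of all genes moved by -0.66 in WT and -0.51 in KO, so the direction of Fth1 holds only relative to the other genes.

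The ratio of Fth1 to Ftl1 counts within a library needs no scaling. It was 1.64, 1.81 and 1.75 in WT UT, 1.04, 1.05 and 1.12 in KO UT, 4.22, 3.04 and 2.83 in WT LPS, and 3.68, 3.64 and 3.64 in KO LPS. All 6 LPS libraries were above all 6 UT libraries, and KO UT lay below WT UT. The geometric mean rose 1.92-fold with LPS in WT and 3.42-fold in KO. An exact two-sided permutation test of 3 against 3 libraries gave p = 0.1 for each of these, the smallest it can give. After LPS the genotypes overlapped (log2 difference 0.14, exact permutation p = 0.4). WT LPS replicate 1 lay above all KO LPS libraries, and the other WT LPS libraries lay below them.

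Copies of the ferritin genes could take or lend reads, since the treatment of reads that map to several places is not given in the sources used here. Of 14 other ferritin-like genes, 9 were at 0 in every library. Ftl1-ps1, which the annotation lists as protein coding, had 1032 to 1364 counts in WT UT and 343 to 373 in WT LPS, beside 58770 counts or more for Ftl1. The 4 others had no more than 42 counts in a library. Gm10252, on the opposite strand of Ftl1, had 63 to 398 counts.

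Of the transport genes, the exporter fell and the endosomal carrier rose. Slc40a1 (ENSMUSG00000025993.10, chromosome 1, 45908068 to 45926523, minus strand), the only known exporter of iron from cells, was at 56.0, 59.7 and 57.0 CPM in WT UT and at 7.56, 6.33 and 4.38 CPM in WT LPS. It was at 63.1, 63.3 and 69.9 CPM in KO UT and at 6.48, 4.39 and 5.71 CPM in KO LPS. The groups of each genotype stood far apart. It was 9.32-fold lower after LPS in WT (log2 change -3.22, SE 0.122, edgeR adjusted p 4.56e-16) and 11.9-fold lower in KO (log2 change -3.57, SE 0.122, edgeR adjusted p 7.18e-17), the largest fall among the members in either genotype.

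Slc11a2 (ENSMUSG00000023030.16, chromosome 15, 100387898 to 100425072, minus strand) was at 55.1, 54.6 and 57.0 CPM in WT UT and at 323.6, 322.9 and 319.3 CPM in WT LPS. In KO it went from 69.5, 61.5 and 61.2 CPM to 308.9, 302.2 and 298.5 CPM. The rise was 5.80-fold in WT (log2 change 2.54, SE 0.0588, edgeR adjusted p 7.15e-20) and 4.73-fold in KO (log2 change 2.24, SE 0.0583, edgeR adjusted p 5.1e-19). Its paralog Slc11a1 (ENSMUSG00000026177.11, chromosome 1, 74375195 to 74386062, plus strand), which moves divalent metals out of the phagosome, changed less. Slc11a1 was at 297 ± 2.82 CPM in WT UT, 467 ± 17.6 in WT LPS, 349 ± 3.45 in KO UT and 543 ± 17.1 in KO LPS (SD, n = 3 each). That is a log2 fold change of 0.65 in WT (edgeR adjusted p 1.05e-10), which became -0.01 with no scaling factors, and 0.64 in KO (edgeR adjusted p 1.46e-10), which kept its sign under each scaling. The ratio of Slc11a1 to Slc11a2 counts went from 5.36 ± 0.132 (SD, n = 3) in WT UT to 1.45 ± 0.0639 (SD, n = 3) in WT LPS.

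Tfrc (ENSMUSG00000022797.15, chromosome 16, 32608920 to 32632794, plus strand), for which 1 of 3 protein-coding transcripts holds the 4 elements printed above, was at 60.4, 58.9 and 62.6 CPM in WT UT and at 38.7, 35.4 and 31.9 CPM in WT LPS. It was at 57.8, 60.5 and 65.2 CPM in KO UT and at 41.1, 41.8 and 43.0 CPM in KO LPS. No LPS library reached the level of a UT library. Tfrc fell by 0.78 on the log2 scale in WT (SE 0.0681, edgeR adjusted p 1.14e-09) and by 0.54 in KO (SE 0.0671, edgeR adjusted p 2.45e-07). The receptor and the exporter were at similar counts before LPS, with a Tfrc to Slc40a1 ratio of 1.05 ± 0.0596 (SD, n = 3) in WT UT. The ratio was 6.00 ± 1.14 (SD, n = 3) in WT LPS and 7.80 ± 1.60 (SD, n = 3) in KO LPS, since Slc40a1 fell further than Tfrc.

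The genes for the iron sensors moved in opposite directions. Aco1 (ENSMUSG00000028405.9, chromosome 4, 40143081 to 40198338, plus strand), whose protein is an aconitase when it holds an iron-sulfur cluster and IRP1 without it, was at 61.4, 59.5 and 58.8 CPM in WT UT and at 28.5, 24.8 and 25.6 CPM in WT LPS. It went from 58.9, 59.8 and 55.7 CPM to 28.5, 28.7 and 31.9 CPM in KO. Aco1 was 2.27-fold lower after LPS in WT (log2 change -1.19, SE 0.0666, edgeR adjusted p 5.28e-13) and 1.96-fold lower in KO (log2 change -0.97, SE 0.0657, edgeR adjusted p 1.41e-11). The value in KO is just inside the threshold of the call, and without KO LPS replicate 3 or KO UT replicate 3 it passed it.

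Ireb2 (ENSMUSG00000032293.7, chromosome 9, 54863789 to 54912530, plus strand), which encodes the sensor that is degraded when iron is plentiful, was at 73.3, 79.1 and 78.7 CPM in WT UT and at 143.3, 113.2 and 104.8 CPM in WT LPS. In KO it was at 62.4, 68.5 and 75.4 CPM and at 134.7, 120.2 and 134.9 CPM. WT LPS replicate 1 gave the highest value of all. On TMM scaling Ireb2 was higher after LPS by 0.65 on the log2 scale in WT (SE 0.0900, edgeR adjusted p 1.4e-06) and 0.92 in KO (SE 0.0906, edgeR adjusted p 8.05e-09), and with no scaling factors the value in WT was -0.02. The ratio of Ireb2 to Aco1 counts, free of scaling, was 1.29 ± 0.0822 in WT UT, 4.56 ± 0.469 in WT LPS, 1.19 ± 0.152 in KO UT and 4.38 ± 0.302 in KO LPS (SD, n = 3 each).

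Cp (ENSMUSG00000003617.16, chromosome 3, 19957054 to 20009145, plus strand), the copper enzyme that oxidizes exported iron so that transferrin can bind it, changed most. In WT cells it had 71, 112 and 114 counts without LPS and 8455, 6512 and 5930 with it. KO cells gave 48, 79 and 67 counts before LPS and 7876, 7896 and 8937 after it. The rise was 134.5-fold in WT (log2 change 7.07, SE 0.119, edgeR adjusted p 3.16e-22) and 171.5-fold in KO (log2 change 7.42, SE 0.125, edgeR adjusted p 2.87e-22). The exons of Cp overlap those of Hps3 on the opposite strand, which had 1966 to 3331 counts in all libraries, and whether counting used the strand is not given in the sources used here.

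**Figure D2:**
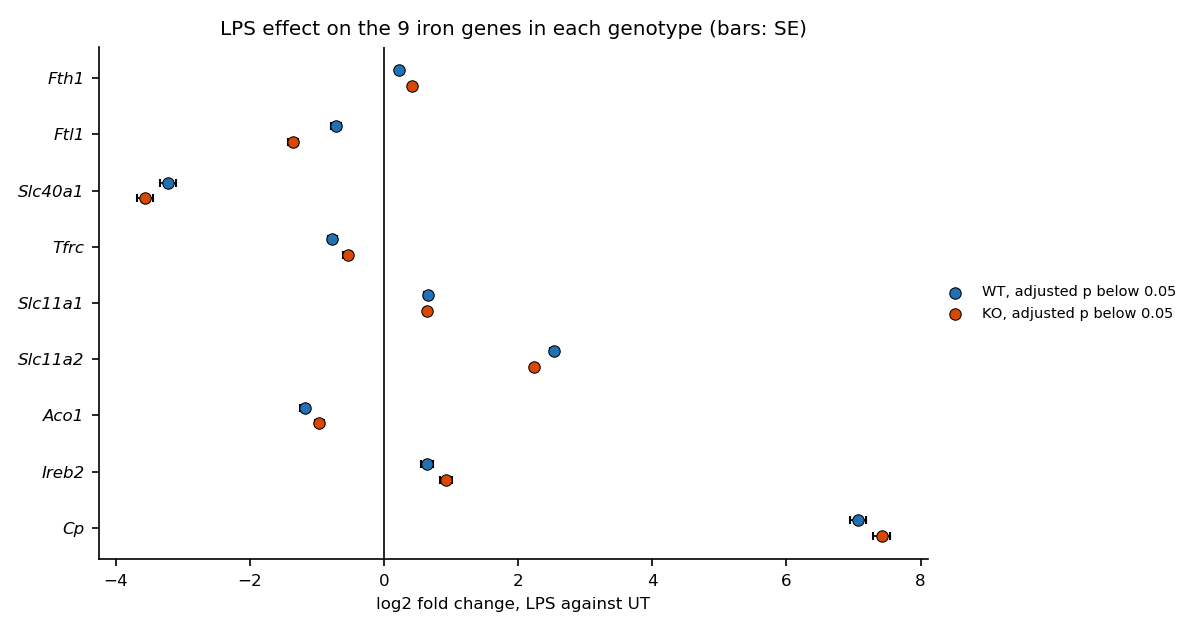
log2 fold change of LPS against UT (x axis) for each of the 9 genes (y axis) in WT and KO cells; bars are the SE of the edgeR fit on TMM scaling, and all points are filled because every adjusted p was below 0.05. Cp lies near 7 and Slc40a1 near -3 in both genotypes, while Fth1 lies at 0.22 and 0.42 here and at -0.45 and -0.09 with no scaling factors.

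Other measures moved with LPS beside these genes. The summed level of the 8 macrophage markers was 28500 to 29540 CPM in WT UT and 24460 to 25970 CPM in WT LPS, carried by Lyz2, while Fcgr1 was 6.09-fold and Itgam 2.24-fold higher and Mertk 5.11-fold and Mrc1 2.62-fold lower after LPS. That of the 5 markers of dividing cells was 99.1 to 101.5 CPM and 85.2 to 94.6 CPM, with Mki67 higher and Top2a lower after LPS, while in KO it was 63.3 to 66.2 CPM before LPS and 64.8 to 71.8 CPM after it. The 5 stromal markers summed to 4.58 to 5.21 CPM and 21.6 to 23.8 CPM, with Pdgfrb making up most of the sum after LPS (19.8 CPM). The T cell list rose from at most 0.353 CPM to at least 4.77 CPM through Cd247 alone, with Cd3d, Cd3e and Cd3g at 0 in WT LPS. The neutrophil list went from at most 1.24 CPM to at least 3.87 CPM through Camp alone (0.206 to 4.02 CPM), while Ngp (edgeR adjusted p 0.0146) and Retnlg (edgeR adjusted p 0.0177) were lower after LPS, Elane was at 0 in WT LPS and Ly6g at 0 throughout. The part of these cells in the changes of the iron genes was not tested.

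The second question was whether the enhancer deletion changed the iron genes. Before LPS, 3 of 9 members passed, all higher in KO (Ftl1, Slc11a1 and Slc11a2), and 0 were called. This split depended on the scaling and tool. With no scaling factors 1 passed higher (Ftl1) and 4 lower, namely Fth1, Aco1 (edgeR adjusted p 0.0164), Ireb2 (0.0112) and Cp (0.0447). With DESeq2 the same 3 passed higher and Fth1, Ireb2 (DESeq2 adjusted p 0.0494) and Cp (0.0499) lower. Of all genes 23.8% passed on TMM scaling (14.1% higher, 9.69% lower) and 1.82% were called. After LPS, 2 of 9 passed, both higher in KO (Tfrc and Slc11a1), and 0 were called, while 14.3% of all genes passed (7.78% higher, 6.54% lower) and 1.25% were called. The genotype comparisons share their libraries with the LPS comparisons above.

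Ftl1 showed the largest genotype difference. Its 3 KO UT libraries, at 6030 CPM or more, lay above its 3 WT UT libraries, at 4511 CPM or less. It was higher in KO (log2 change 0.59, SE 0.0709, edgeR adjusted p 3.68e-06), with within-batch differences of 0.54, 0.70 and 0.52 on the log2 scale. Fth1 was 7335 ± 66.9 CPM in WT UT and 6807 ± 44.1 CPM in KO UT (SD, n = 3 each; log2 fold change -0.11, edgeR adjusted p 0.0935), which did not pass. It passed, still lower in KO, with RLE scaling (edgeR adjusted p 0.00483), upper-quartile scaling (0.0189), no scaling factors (0.000212), the UT groups alone (0.000222) and DESeq2 (0.0023), and without WT LPS replicate 1 (0.00405) or replicate 3 (0.0382).

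KO UT libraries differed from WT UT libraries in other ways. Protein-coding genes took 86.3% to 87.6% of counts in KO UT and 90.1% to 90.6% in WT UT, and with scaling from protein-coding genes alone the Ftl1 difference was again 0.59. The macrophage list summed to 32750 to 33840 CPM in KO UT, above WT UT, most of it Lyz2 (27330 CPM against 23440 CPM). Of its 8 genes 5 passed higher in KO UT (Lyz2, Cd68, Mrc1, Adgre1 and Mertk), Csf1r passed lower (log2 -0.13, edgeR adjusted p 0.0491), and Fcgr1 and Itgam did not pass. Dividing-cell markers summed to 63.3 to 66.2 CPM in KO UT, below WT UT. The neutrophil list summed to 2.25 to 3.38 CPM in KO UT against 0.926 to 1.24 CPM in WT UT. The part of these cells in the Ftl1 difference was not tested.

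Slc11a1 was the only member that passed in both treatments. It was higher in KO by 0.23 on the log2 scale before LPS (SE 0.0494, edgeR adjusted p 0.0014) and by 0.22 after it (SE 0.0494, edgeR adjusted p 0.0053). The groups overlapped in neither treatment, and the within-batch differences were 0.22, 0.25 and 0.22 before LPS and 0.29, 0.24 and 0.12 after it. With no scaling factors the value before LPS was 0.08 (edgeR adjusted p 0.231), as the median of all genes moved by -0.15.

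Slc11a2 and Tfrc each passed in a single treatment and depended on single libraries. Slc11a2 was higher in KO UT by 0.21 (SE 0.0571, edgeR adjusted p 0.0105; within batches 0.34, 0.17 and 0.10). The adjusted p was 0.0901 without KO UT replicate 1, 0.0508 without WT UT replicate 2, 0.0819 with RLE scaling and 0.491 with no scaling factors. Tfrc was higher in KO LPS by 0.24 (SE 0.0701, edgeR adjusted p 0.0235; within batches 0.09, 0.24 and 0.43). Its adjusted p was 0.0562 and 0.082 without KO LPS replicate 2 or 3, 0.0644 and 0.11 without WT LPS replicate 2 or 3, and 0.0518 when only the LPS groups were fitted.

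KO LPS and WT LPS libraries differed in other measures too. The macrophage list summed to 27120 to 28780 CPM in KO LPS and 24460 to 25970 CPM in WT LPS, with 6 of 8 genes passing higher in KO and Cd68 and Mertk not passing. Dividing-cell markers summed to 64.8 to 71.8 CPM against 85.2 to 94.6 CPM, and Mki67 (51.4 against 68.6 CPM on average) was the only one of the 5 that passed. Stromal markers summed to 26.3 to 28.4 CPM against 21.6 to 23.8 CPM, with Col1a1, Col1a2, Col3a1 and Dcn called higher in KO at 2.43 CPM or less each. Protein-coding genes took 91.4% to 91.6% of counts against 86.9% to 90.0%. The part of these measures in the Tfrc and Slc11a1 differences was not tested.

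The other members had an adjusted p above the threshold in the genotype comparisons, with the sizes plotted by genotype. After LPS, log2 differences of KO against WT were 0.10 for Fth1, -0.05 for Ftl1, -0.16 for Slc40a1, -0.09 for Slc11a2, 0.17 for Aco1, 0.11 for Ireb2 and 0.06 for Cp. Without WT LPS replicate 1, 6 of 9 members passed instead of 2, while without KO LPS replicate 2 or 3, or WT LPS replicate 2 or 3, Tfrc was lost and 1 of 9 passed. The 4 added without WT LPS replicate 1 were Fth1 (0.16, edgeR adjusted p 0.000565), Ftl1 (-0.16, edgeR adjusted p 0.0141), Aco1 (0.24, edgeR adjusted p 0.0205) and Ireb2 (0.25, edgeR adjusted p 0.00935). Before LPS, the differences were 0.19 for Slc40a1, 0.01 for Tfrc, -0.04 for Aco1, -0.16 for Ireb2 and -0.29 for Cp. Over the fits that left out 1 library, Cp ranged from -0.50 to -0.14 and Ireb2 from -0.23 to -0.097. Leaving out WT LPS replicate 1, which is in neither UT group but shares in the estimate of spread, took the number that passed from 3 to 5, adding Fth1 and Ireb2 (-0.16, edgeR adjusted p 0.049), both lower in KO. With only the UT groups fitted, Fth1 passed lower in KO too, as did Ireb2 (-0.17, edgeR adjusted p 0.0277), and Slc40a1 passed higher (0.18, edgeR adjusted p 0.00711). With DESeq2, Fth1, Ireb2 (-0.24, adjusted p 0.0494) and Cp (-0.36, adjusted p 0.0499) passed lower.

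**Figure D3:**
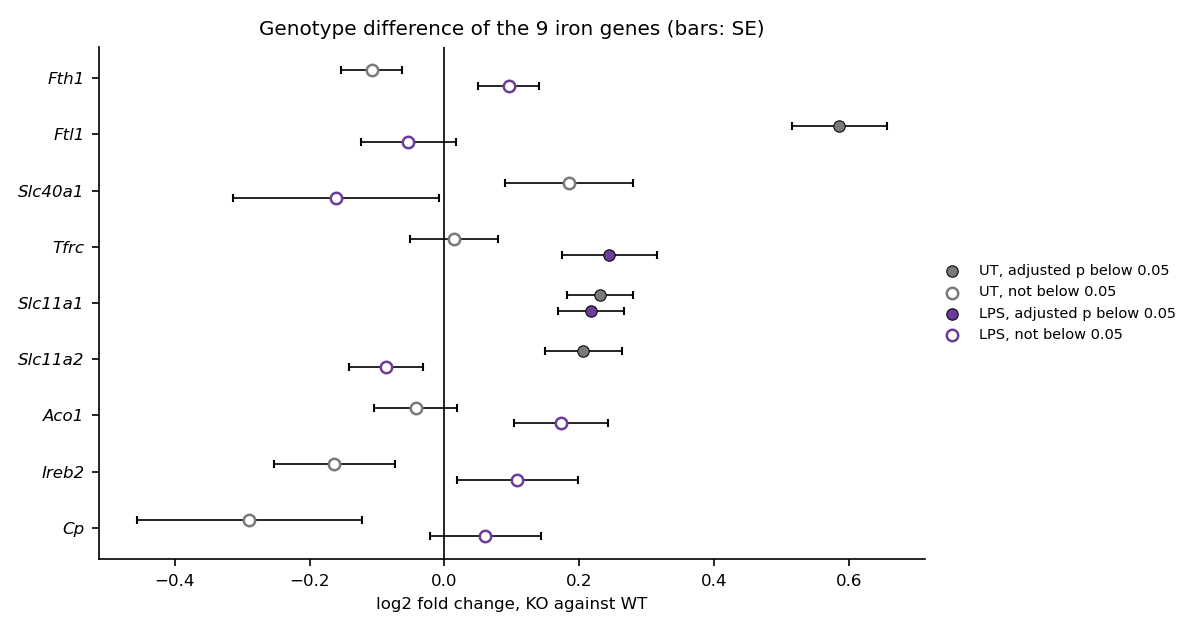
log2 fold change of KO against WT (x axis) for each of the 9 genes (y axis), before LPS (UT) and after LPS; bars are the SE of the edgeR fit, filled points have an adjusted p below 0.05 and open points do not. Ftl1 in UT stands at 0.59, and every other difference is under 0.3 in size.

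The third question was whether the response to LPS differed between genotypes, which was tested as the interaction of genotype and LPS. Of the 9 members 3 passed (1 higher and 2 lower, in the sense of a response higher or lower in KO), and 0 were called. Of all genes 16.8% passed (7.32% higher, 9.5% lower) and 2.16% were called. Ftl1 fell further in KO than in WT (interaction -0.64 on the log2 scale, SE 0.100, edgeR adjusted p 0.000187), as its level was higher in KO before LPS and overlapped with WT after it. Slc11a2 rose less in KO (-0.29, SE 0.0793, edgeR adjusted p 0.0137), with an adjusted p of 0.0561 without KO UT replicate 1, 0.0603 with RLE scaling and 0.224 with no scaling factors. Fth1 had an interaction of 0.20 (SE 0.0641, edgeR adjusted p 0.0335) that passed in only 2 of 12 fits that each left out 1 library. In the other 10 fits its adjusted p was 0.0558 to 0.0923, with the replicate block it was 0.0591, and with scaling from protein-coding genes it was 0.0732. The remaining 6 ran from -0.35 for Slc40a1 to 0.35 for Cp and had adjusted p-values of 0.108 to 0.934. Without WT LPS replicate 1, 3 of these passed, namely Tfrc (0.30, edgeR adjusted p 0.0126), Aco1 (0.28, edgeR adjusted p 0.0242) and Ireb2 (0.42, edgeR adjusted p 0.00117). Without WT LPS replicate 3, Slc40a1 passed (-0.52, edgeR adjusted p 0.0208). Tfrc and Aco1 also passed with RLE scaling (0.31, edgeR adjusted p 0.0249, and 0.30, edgeR adjusted p 0.0289) and with no scaling factors, and Ireb2 passed with no scaling factors (0.43, edgeR adjusted p 0.0204) and with no filter on low counts (0.30, edgeR adjusted p 0.0215). With DESeq2, Tfrc (adjusted p 0.0162), Aco1 (adjusted p 0.0188), Ireb2 (adjusted p 0.0469) and Cp (0.43, adjusted p 0.0444) passed.

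**Figure D4:**
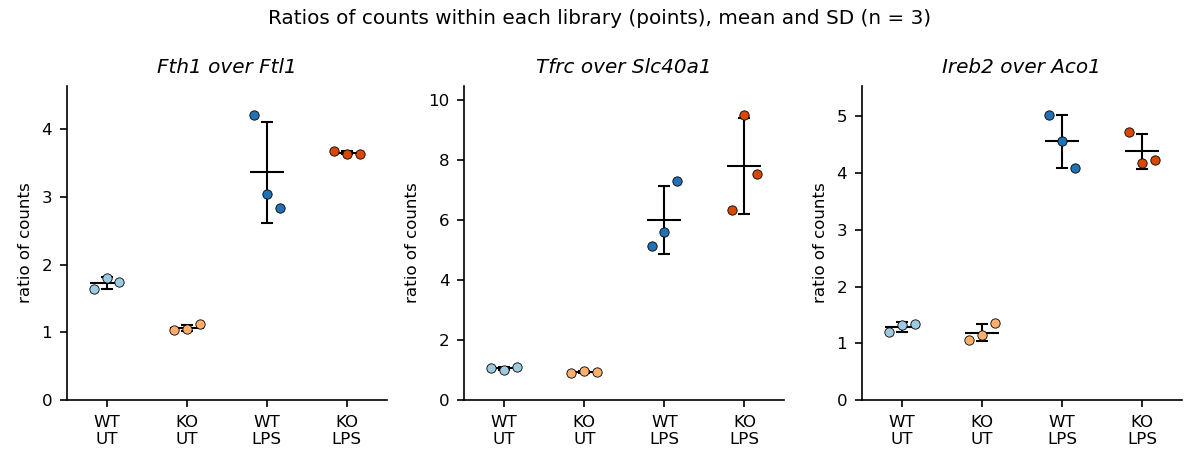
Ratios of the counts of 2 genes within each library (y axis, from 0) by group (x axis) for Fth1 over Ftl1, Tfrc over Slc40a1 and Ireb2 over Aco1; points are libraries, the wide mark is the mean and the bars are the SD (n = 3). All 3 ratios are higher in the 6 LPS libraries than in the 6 UT libraries, and the Fth1 to Ftl1 ratio is lower in KO UT (at most 1.12) than in WT UT (at least 1.64).

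A further 44 genes of iron and heme handling were listed in 8 groups by role, of which 33 were tested. Of these, 27 passed in WT after LPS (12 higher, 15 lower, 16 called) and 27 in KO (12 higher, 15 lower, 21 called), or 81.8% each, beside the 73.3% and 72.8% of all genes. Of all genes, 37.8% were called in WT and 37% in KO. The counts by role below are to be read beside these shares, and no group was tested as a set. Hepcidin (Hamp and Hamp2), Bmp6, Hjv, Tfr2, Heph, Cybrd1, Steap1, Steap2, Ftmt and Alas2 did not pass the filter on low counts.

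Among proteins that bind iron or heme outside the cell, 4 of 5 passed in each genotype, 2 in either direction. Lcn2, the siderophore-binding lipocalin, rose from 22, 26 and 24 counts to 4569, 3971 and 4133 in WT (log2 change 8.40, SE 0.136, edgeR adjusted p 1.96e-22). Hp, haptoglobin, rose by 6.51 (SE 0.101, edgeR adjusted p 1.03e-22). Ltf, lactoferrin, fell by 3.17 (edgeR adjusted p 1.07e-06) from a mean of 1.82 CPM, and Trf, transferrin, fell by 1.48 (edgeR adjusted p 3.76e-09).

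Among metalloreductases and other metal transporters, all 4 tested passed in WT and 3 in KO. Slc39a14, the plasma membrane carrier ZIP14, rose from 14.2 ± 0.579 CPM in WT UT to 289 ± 7.93 CPM in WT LPS (SD, n = 3 each; log2 fold change 4.35, edgeR adjusted p 2.04e-23). Steap3, the endosomal ferrireductase that works beside Slc11a2, went the other way from it and fell from 38.6 to 2.54 CPM (log2 fold change -3.91, edgeR adjusted p 1.75e-16). Steap4, a metalloreductase known from inflamed tissue, had 2, 2 and 0 counts in WT UT and 338, 223 and 229 in WT LPS, so no fold is given.

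In the mitochondrial group 5 of 6 passed in WT and 4 in KO. Slc25a37, mitoferrin 1, rose by 3.18 on the log2 scale in WT (SE 0.0647, edgeR adjusted p 7.37e-21) and 3.29 in KO. KO cells also had less of it than WT cells in both treatments, by 0.51 before LPS (edgeR adjusted p 5.02e-06) and by 0.41 after it (edgeR adjusted p 8.13e-05). Glrx5, a glutaredoxin of iron-sulfur cluster assembly, fell by 0.71 in WT (edgeR adjusted p 2.6e-05) and by 1.48 in KO (edgeR adjusted p 3.81e-10).

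In the heme group 7 of 8 passed in each genotype. Hmox1, the heme oxygenase that frees iron from heme, rose by 2.29 in WT (SE 0.0592, edgeR adjusted p 4.81e-19) and Flvcr1, a heme exporter, fell by 2.71 (edgeR adjusted p 9.36e-20). Of genes that act on ferritin or the sensors, Ncoa4, the receptor that delivers ferritin to the lysosome, fell by 1.51 (edgeR adjusted p 2.66e-16). Fbxl5, the ubiquitin ligase subunit that marks IRP2 for degradation, rose by 2.88 (edgeR adjusted p 7.2e-21). Bmp2, the only tested gene of hepcidin and its inducers, had 97, 126 and 76 counts in WT UT and 0, 1 and 4 in WT LPS. Of the uptake receptors, 2 of 4 passed in WT and 4 of 4 in KO, all lower, with Hfe at -1.67 in WT (edgeR adjusted p 3.12e-15). Slc22a17 had 14, 15 and 13 counts in KO UT and 5, 1 and 1 in KO LPS, and its call in KO (edgeR adjusted p 0.013) was lost without KO LPS replicate 2 (0.065) or replicate 3 (0.0674). Epas1, whose mRNA is known to carry an iron-responsive element, fell by 2.89 in WT (edgeR adjusted p 2.94e-07). It had 99, 147 and 157 counts in WT UT and 10, 17 and 1 in WT LPS. The search for elements described above found no match in Epas1, from which nothing follows for the gene.

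**Figure D5:**
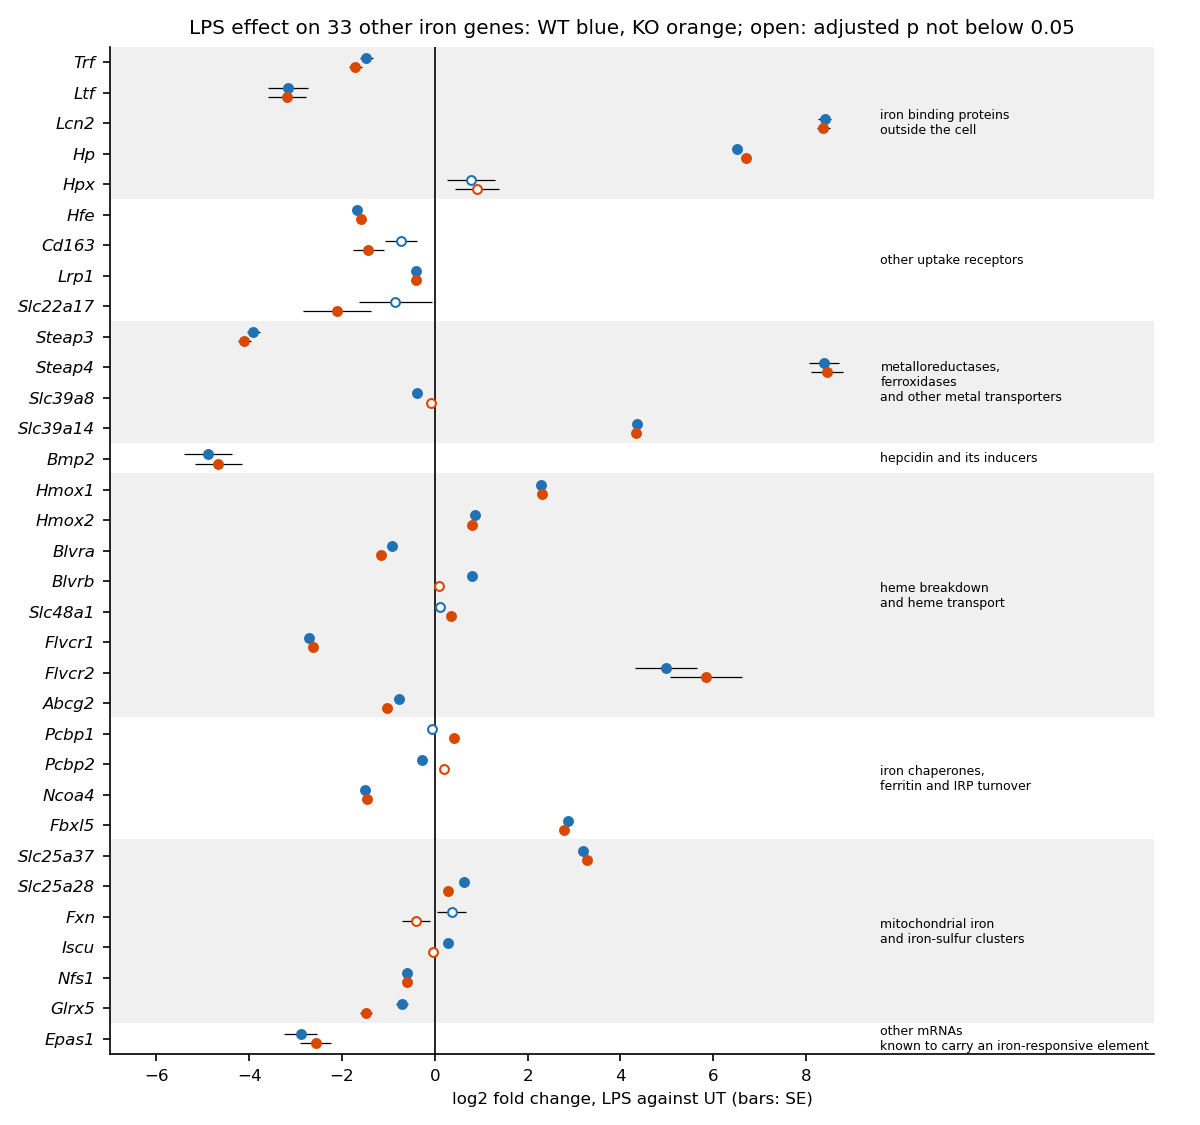
log2 fold change of LPS against UT (x axis) for the 33 other iron genes that were tested (y axis, grouped by role) in WT (blue) and KO (orange); bars are the SE of the edgeR fit, filled points have an adjusted p below 0.05 and open points do not. Lcn2, Steap4, Hp and Flvcr2 lie farthest to the right and Bmp2 and Steap3 farthest to the left, and for Steap4, Flvcr2, Bmp2 and Slc22a17, which had 5 counts or fewer in each library of one treatment, the position depends on the prior count of the fit.

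Between genotypes 6 of the 33 passed after LPS (4 higher and 2 lower in KO) and 8 before LPS (6 higher and 2 lower), and 0 were called in either, beside the shares of all genes given above. Heme genes made up 3 of the 6 (Hmox1, Hmox2 and Slc48a1, all higher in KO) and 4 of the 8 (Hmox1, Hmox2, Blvra and Blvrb, all higher in KO). Blvrb, biliverdin reductase B, was 1.55-fold higher in KO UT (log2 change 0.63, SE 0.0723, edgeR adjusted p 2.01e-06), close in size to Ftl1. It was at 169, 166 and 163 CPM in WT UT and 268, 251 and 252 CPM in KO UT. Before LPS the iron-sulfur genes Iscu (0.43, edgeR adjusted p 6.67e-05) and Glrx5 (0.57, edgeR adjusted p 0.000524) were higher in KO too, while Pcbp2, an iron chaperone that loads ferritin, was lower (-0.29, edgeR adjusted p 0.0152), which did not pass without KO UT replicate 1 (0.101) or WT UT replicate 1 (0.052). After LPS, Fbxl5 did not pass in 9 of 12 fits that left out a library, WT LPS replicate 1 among them (0.0781), nor with RLE scaling (0.0522), no scaling factors (0.0594), no filter (0.193) or the LPS groups alone (0.0721). Hmox1 did not pass without KO LPS replicate 1 (0.056) or 2 (0.134) or WT LPS replicate 3 (0.0821), with protein-coding scaling (0.0646) or with the LPS groups alone (0.0694). Pcbp1 did not pass without KO LPS replicate 1 (0.0657) or WT LPS replicate 3 (0.056). Before LPS, Hmox1 (0.16, edgeR adjusted p 0.0406) did not pass under most alternatives, with adjusted p-values of up to 0.894 with no scaling factors.

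For the 3 members with the widest range over the groups, the protein-coding genes of most similar pattern were sought among 9085 genes with a mean of at least 5 CPM, by Pearson r of log2 CPM over the 12 libraries. These were Glipr2 (r = 0.9996) and Cd69 (r = 0.9992) for Cp, Aldh9a1 (r = 0.9973) and Gprc5c (r = 0.9967) for Slc40a1, and Bcl2a1d and Tnc (r = 0.9994 each) for Slc11a2. The libraries fall into UT and LPS libraries, so r mostly reads that step and is given as a description. Cd69, for example, went from 1.39 CPM in WT UT to 312 CPM in WT LPS, and Aldh9a1 from 95.8 to 17.3 CPM.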

How the data were processed

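The deposited table holds raw counts per gene for 12 libraries. The authors used a stranded total RNA kit that also removes globin, aligned reads to GRCm38 and, by the submitters' processing notes, used FastQC 0.11.9, HISAT2 2.1.0, SAMtools 1.17 and featureCounts 2.0.0. How strand and multi-mapping reads were counted is not given in the sources used here, so overlapping genes and ferritin copies are uncertain, and gene counts do not separate isoforms.

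Identifiers were matched to GENCODE M21 without their version (48144 of 48526). Genes were kept by filterByExpr (minimum count 10, minimum total 15), which left 15523. The quasi-likelihood test was that of edgeR 4.0.16 (limma 3.58.1, R 4.3.3), applied to TMM-scaled libraries in one model of 4 group means over all 12 libraries, with Benjamini-Hochberg adjustment over all genes kept. The common biological coefficient of variation was 0.0712. FPKM was computed here from TMM-scaled counts and the union of exons. Ratios were compared by exact two-sided permutation. The fits were tested on simulated data. Figures used matplotlib 3.10.9 and pandas 2.3.3 in Python 3.11.15.

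Alternatives were RLE, upper-quartile and protein-coding scaling, no scaling factors, DESeq2 1.42.0, no filter, a filter at a mean of 1 CPM, a replicate block, the compared groups alone, leaving out each library, a fold threshold, and TPM for FPKM.

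The titles give a replicate number, and the batch number used here equals it. A batch thus pairs libraries by that number only. The deviations of same-numbered libraries correlated between -0.0631 and 0.0373 over 18 pairs. Counts of replicates differed beyond sampling noise, with a chi-square per degree of freedom no lower than 3.73, so no library was counted as a copy of another.

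The members and lists were chosen with earlier results of these data known. Named were all 9 members, Tnf, ferritin copies, and of the other iron genes the 8 called with the largest change in each comparison at a mean of at least 1 CPM. A few genes of these lists are not reported here and stay out of the counts over lists. Other iron genes in the text, and marker genes named singly, were chosen after their values were seen.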

Additional observations from a re-analysis of the deposited data

Results flagged for a closer look

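The response to LPS differed between genotypes, by the edgeR test of the interaction, for 3 of 9 members and 8 of 33 other iron genes (24.2%), beside 16.8% of all genes tested. Values are the log2 response in KO minus that in WT. For the ferritin chains the difference was -0.64 for Ftl1 (edgeR adjusted p 0.000187) and 0.20 for Fth1 (edgeR adjusted p 0.0335), and for Slc11a2 it was -0.29 (edgeR adjusted p 0.0137). Among heme genes it was -0.71 for Blvrb (edgeR adjusted p 9e-05), -0.25 for Blvra (edgeR adjusted p 0.0418) and 0.24 for Slc48a1, a heme transporter (edgeR adjusted p 0.0318). For the iron chaperones it was 0.47 for Pcbp1 (edgeR adjusted p 0.00259) and 0.45 for Pcbp2 (edgeR adjusted p 0.0114). For mitochondrial genes it was -0.78 for Glrx5 (edgeR adjusted p 0.00358), -0.34 for Slc25a28 (edgeR adjusted p 0.0266) and -0.33 for Iscu (edgeR adjusted p 0.0239). Ftl1, Blvrb, Pcbp1, Pcbp2 and Glrx5 had an adjusted p under 0.05 in every alternative fit, and the other 6 did not in some. None of the 11 had an absolute log2 difference above 1. Without single libraries the adjusted p reached 0.0923 for Fth1, 0.0561 for Slc11a2, 0.136 for Blvra, 0.0809 for Slc48a1, 0.0938 for Slc25a28 and 0.0793 for Iscu.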

How the results depend on the processing

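All 9 members passed for LPS in WT and in KO in each of the 12 fits that left out 1 library. With no scaling factors 7 passed in WT and 8 in KO, and Fth1 was at -0.45, Slc11a1 at -0.0136 and Ireb2 at -0.0180 in WT, with Fth1 at -0.0896 in KO. Of the other iron genes, Slc25a28 was then at -0.0454 in WT and -0.23 in KO, Iscu at -0.38 in WT, and Slc48a1 at -0.16 and Pcbp1 at -0.0969 in KO. A threshold of 1 on the absolute log2 fold change left 4 members in WT, 4 in KO and 0 in the genotype comparisons and the interaction. After LPS, the number of members that differed by genotype (2) was 1 when only the LPS groups were fitted and 1 to 6 over the fits that left out a library, with 6 without WT LPS replicate 1. Ftl1 then ranged from -0.16 (without WT LPS replicate 1) to 0.0344 (without WT LPS replicate 3) and Slc40a1 from -0.34 (without WT LPS replicate 3) to 0.0395 (without WT LPS replicate 1). Before LPS, the number (3) was 5 with no scaling factors, 6 with only the UT groups, 6 with DESeq2 and 2 to 5 over the fits without a library. Tfrc, at 0.01, was at -0.0586 with RLE scaling and with DESeq2, -0.00792 with upper-quartile scaling, -0.14 with no scaling factors and -0.0339 (without KO UT replicate 3) to 0.0537 (without KO UT replicate 1) over the fits without a library. For the interaction, the number (3) was 5 with no scaling factors, 7 with DESeq2 and 1 to 6 without a library, the 1 being without KO UT replicate 1 and the 6 without WT LPS replicate 1. The interaction of Slc11a1, at -0.01, was 0.0673 with RLE scaling, 0.0675 with DESeq2, 0.14 with no scaling factors, 0.0187 with no filter and -0.0419 (without WT LPS replicate 1) to 0.0132 (without KO LPS replicate 3) over the fits without a library. With the replicate block, which pairs libraries by replicate number, 9, 9, 2, 3 and 2 members passed in the 5 comparisons. Among members only the interaction of Fth1 was lost (edgeR adjusted p 0.0591). Among the other iron genes the replicate block took the adjusted p above the threshold for Fbxl5 after LPS (0.0793), Hmox1 before it (0.0583), and the interactions of Blvra (0.0684) and Slc48a1 (0.0602). The cause of these shifts was not tested.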
